A study of Mus musculus with 6 samples.

Results

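The genes described here are the vomeronasal receptor genes of the mouse, read as DNA copy ratios in malignant mesothelioma, a cancer that grows from the sheets of cells around the lungs and abdominal organs. They were chosen by name: every probe on an autosome whose gene name on the denser array design starts with V1r, V2r or Vmn. This gave 62 genes, 60 of them V1r, 2 of them V2r and 0 of them Vmn, out of 24939 autosomal genes. They carried 81 of the 220065 autosomal probes of the denser design, and 55 of the 62 genes had 1 probe. By transcript accession, 60 genes matched a RefSeq gene (GRCm38.p6), and 1 more matched by symbol or synonym. The other was V1rd18. That table holds 231 protein-coding Vmn1r and 124 protein-coding Vmn2r genes, so the genes named on the array are a small share of the family, with very few V2r genes. Whether probes without such a name lie in other receptor genes was not searched.

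Vomeronasal receptors are G protein-coupled receptors of sensory neurons in the vomeronasal organ of the nose, where they detect pheromones and other social cues. V1R receptors work through the G protein subunit Gnai2, and V2R receptors, which have a long extracellular domain and bind peptides and proteins, through Gnao1; both pathways open the channel Trpc2. The genes lie in tandem clusters that grew by duplication, hold many pseudogenes and differ in content between mouse strains. They have no known role in mesothelioma, and these data measure DNA, not expression.

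The 5 tumours form 1 group and are given below in the order ARF-104, ARF-112, ARF-129, ARF-128 and ARF-110, and the reference on every array was DNA of C57BL/6J mice bought from Jackson Laboratories. The series title places the tumours in Arf knock-out mice exposed to asbestos; Arf is a tumour suppressor encoded by the Cdkn2a locus. The design text gives the genotype Arf (+/-) and speaks of 4 mice, while the titles name 5 tumours, so 1 of them has no stated genotype. Primary tumour cells are the stated source for every tumour but ARF-104, whose source field holds its name alone. Age, sex and the strain of the tumour-bearing mice are not given in the sources used here, and no normal DNA of these mice was measured, so inherited and tumour-acquired differences from the reference cannot be told apart. Nothing says that the tumours came from separate animals; their numbers were taken to mean this. Tumour DNA carried Cy5 and reference DNA Cy3 on all 6 arrays, with no dye swap, so a difference between the dyes cannot be told apart from a difference in copies.

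A denser design of 243301 spots was used for ARF-104, ARF-112 and ARF-129, and a sparser one of 44050 spots for ARF-110. ARF-128 was read on both and is represented by its denser array, titled ARF-128PlusMinus, an addition whose meaning is not given. The sparser array of ARF-128 was less like this one than like the arrays of the other tumours over the members, so the counts of calls are also given without ARF-128. On the sparser design 53 of the 62 genes had a probe; for the other 9, ARF-110 has no value and n is 4. The arrays fall into 3 scan days: scan 1 holds both sparser arrays, scan 2 holds ARF-104, ARF-112 and ARF-129, and scan 3 the denser array of ARF-128. The SD of log2 ratios between neighbouring probes was 0.15 in ARF-110, 0.36 to 0.49 in the tumours of scan 2, and 0.78 (denser) and 0.43 (sparser) in ARF-128, so ARF-128 is the least precise. All member spots were well above background in both channels on the 5 arrays that represent the tumours, and 0 were saturated. Their median GC content was 35.0% (25.0% to 44.0%), against 36.7% over all autosomal probes.

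What a probe of this family reads depends on its sequence, so the probes on which the results below turn are shown as the scanner file gives them, with mm7 positions. The first pair are neighbours: V1rd9 had the lowest value of the 62 genes and V1rd7 lay near the level of its surroundings. V1rd9 is at chr7:20447104-20447163 and V1rd7 at chr7:20419929-20419988.
V1rd9: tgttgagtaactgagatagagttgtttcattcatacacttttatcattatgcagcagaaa
V1rd7: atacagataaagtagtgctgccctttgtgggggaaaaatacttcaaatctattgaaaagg
The next pair gave the highest means, V1rk1 at chr7:11718564-11718623 and V1rj2 at chr7:11806222-11806281.
V1rk1: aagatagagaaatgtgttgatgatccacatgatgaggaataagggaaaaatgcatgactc
V1rj2: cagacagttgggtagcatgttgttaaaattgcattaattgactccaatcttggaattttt
The third pair, V1ri7 at chr13:21867312-21867371 and V1ri10 at chr13:22465992-22466051, share a run of 19 bases, in capitals, which one probe carries on the opposite strand of the other.
V1ri7: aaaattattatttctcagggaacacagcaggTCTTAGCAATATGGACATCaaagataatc
V1ri10: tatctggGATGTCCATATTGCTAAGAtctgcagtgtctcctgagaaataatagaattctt
Probes 2 and 3 of V1rh13, at chr13:22529505-22529559 and chr13:22529530-22529589, overlap by the 30 bases in capitals.
V1rh13 probe 2: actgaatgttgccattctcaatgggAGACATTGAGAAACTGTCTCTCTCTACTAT
V1rh13 probe 3: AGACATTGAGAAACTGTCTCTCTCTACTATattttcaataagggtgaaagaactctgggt
The last pair are the first and the last probe of V2r1b, at chr6:124008693-124008752 and chr6:124037958-124038017, which moved apart.
V2r1b probe 1: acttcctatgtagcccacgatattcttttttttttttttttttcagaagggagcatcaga
V2r1b probe 5: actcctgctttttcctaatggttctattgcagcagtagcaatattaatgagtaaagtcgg
Over the 3240 pairs of member probes, V1ri7 with V1ri10 and V1rh13 probes 2 and 3 were the only 2 pairs that shared a run of 15 or more bases on either strand. Likeness with mismatches, and matches to family members that have no probe here, were not searched.

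Each gene was compared with its surroundings: its difference is the mean log2 ratio of its own probes minus the median log2 ratio of the other genes' and intergenic probes, other members left out, within 1 Mb of either side, which subtracts a gain or loss of a whole region. Against their surroundings 9 members were lower, among them V1rd9, V1re3 and V1re9, and 9 were higher, among them V1rk1, V1rj2 and V1rb7 (limma, adjusted p under 0.05 over all genes). The background was 12.4% of all 24936 genes lower and 9.63% higher, and each count of members was 14.5%. Among the 8412 genes with 1 probe, 16.5% were lower and 15.5% higher, against 14.5% in each direction for the 55 members with 1 probe. Members were thus called about as often as other genes with as few probes. The median difference of the 62 members was 0.01, against -0.02 over all genes, and the median size of the difference was 0.22 for members with 1 probe, against 0.29 for all genes with 1 probe.

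Below their surroundings in every tumour that measured them were 11 members, 17.7%, against 23.2% of all genes. Above them in every tumour were 14 members, 22.6%, against 18.9%. A mean of at least 0.5 below was seen for 2 members (3.23%, background 6.43%) and a mean of at least 0.5 above for 6 (9.68%, background 4.38%); among genes with 1 probe these shares were 3.64% of members, against 14.2%, below and 9.09%, against 10.7%, above. Probes at least 1 below their surroundings, which a loss of 1 of 2 copies in all cells would reach, numbered 0 of 58 in ARF-110, and of 81 they numbered 5 in ARF-128, 3 each in ARF-112 and ARF-129, and 2 in ARF-104. The background shares were 0.21%, 11.4%, 1.99%, 3.96% and 1.36%.

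**Figure D1:**
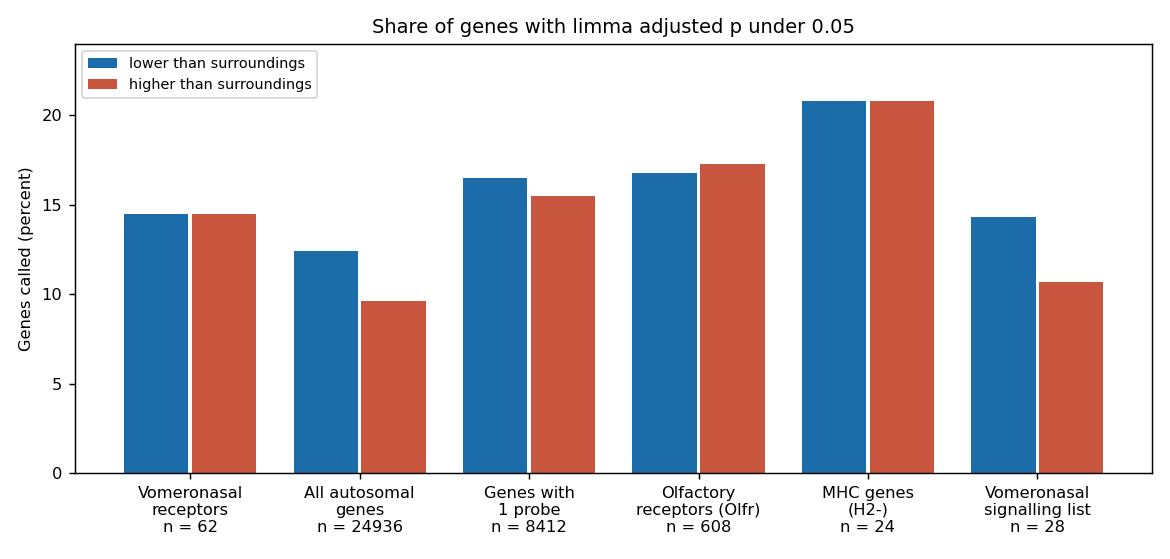
Percent of genes called lower (blue) and higher (red) than their 1 Mb surroundings at a limma adjusted p under 0.05, by gene list, with the number of genes tested under each pair of bars. The vomeronasal receptors stand at 14.5% in both directions, between all genes (12.4% and 9.63%) and the MHC genes (20.8% and 20.8%).

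The calls rested on the tumours of scan 2. When the scan day entered limma as a random block, the estimated correlation within scan days was 0.86. This fit called 0 members lower and 0 higher, as it called 0 of all genes in both directions. Adjusted p values of the 18 called members were then 0.267 to 0.400. At an unadjusted p under 0.05 it gave 4 and 9 members. Its share of all genes at that limit was not counted, so these counts cannot be set against a background. Without the block 15 members passed that limit in each direction (24.2%, with 23.4% and 18.6% of all genes). Leaving out ARF-104, ARF-112 or ARF-129 also gave 0 and 0, and 0 of all genes in both directions. Leaving out ARF-110 gave 10 and 10 (16.1% each, with 18.4% and 14.5% of all genes), and leaving out ARF-128 gave 13 and 15 (21.0% and 24.2%, with 17.2% and 15.2% of all genes). Within scan 2 alone, an alternative added after the data were seen, 20 members were lower and 19 higher (32.3% and 30.6%, with 29.9% and 26.0% of all genes).

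**Figure D2:**
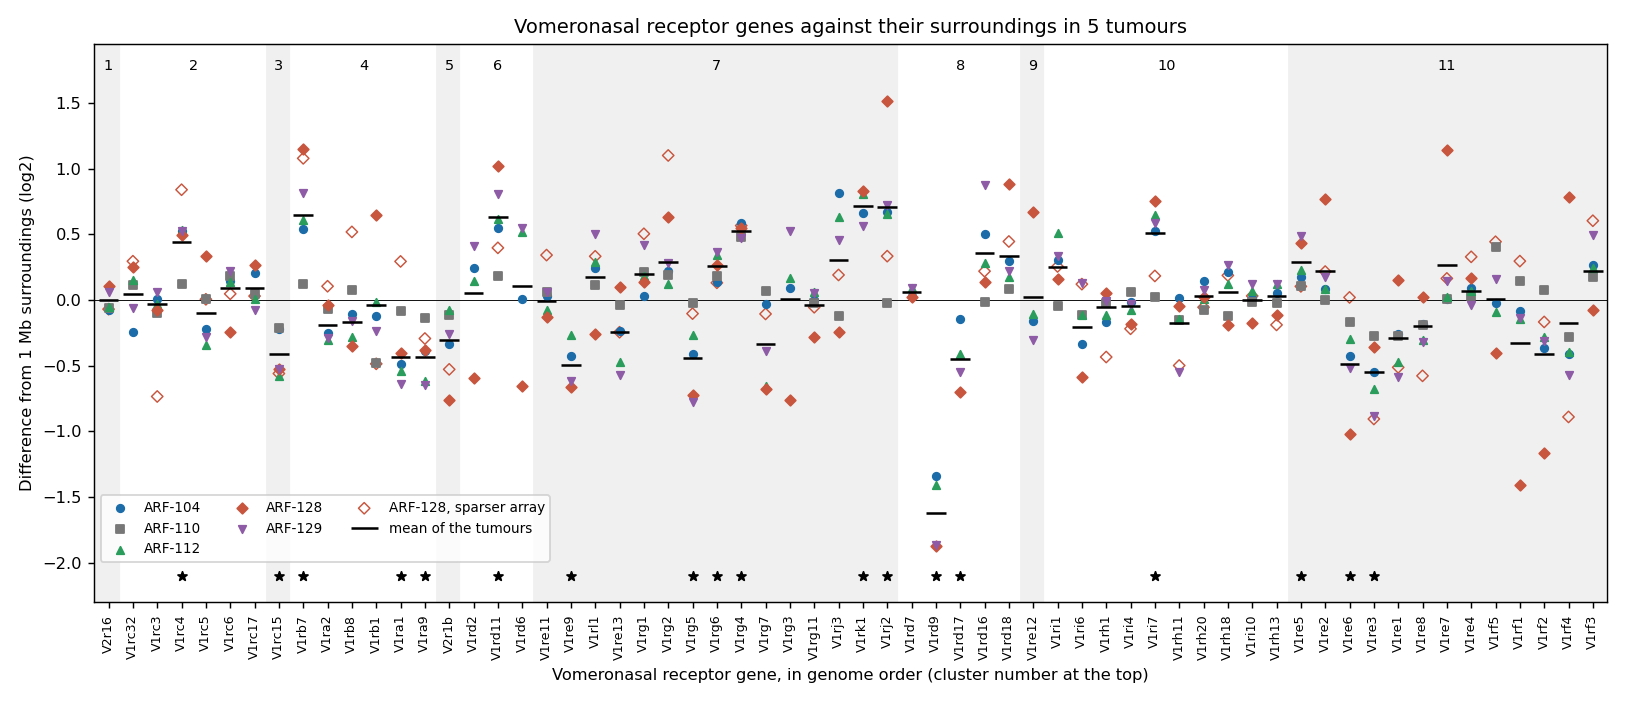
Difference of each vomeronasal receptor gene from its 1 Mb surroundings (log2, y axis) in each tumour, genes in genome order (x axis) with clusters shaded and numbered; filled symbols are tumours, open diamonds the sparser array of ARF-128, black bars means, and stars mark a limma adjusted p under 0.05. V1rd9 lies at -1.34 to -1.87 in 4 tumours, while most members lie within 0.5 of 0 and the squares of ARF-110 lie closest to it.

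The genes lie in 11 clusters, taken as runs of members less than 1 Mb apart, on chromosomes 5, 6, 7, 13 and 17. The mean log2 ratio of a cluster's probes lay on the same side of 0 as the median of its surroundings in 38 of 54 pairs of cluster and tumour. Around the V1rc cluster of chromosome 6 the median log2 ratio was 0.50 in ARF-104, and the mean of the cluster's own probes was 0.57. In ARF-110 these levels were 0.22 and 0.29, in ARF-112 -0.07 and 0.01, in ARF-129 0.07 and 0.14, and in ARF-128 -0.10 and 0.10. In ARF-129, where the surroundings of the 4 clusters of chromosome 7 stood at -0.33 to -0.47, 3 of the clusters had means of -0.28 to -0.67 and the first V1rd cluster 0.24. That cluster stood above 0 in all 5 tumours (0.12 to 0.33), with surroundings below 0 in all 5 (-0.02 to -0.39). It holds 4 probes, 2 of them of V1rd11, and its value in ARF-110 is 1 probe of V1rd11. The other genes in it, V1rd2 and V1rd6, had mean differences of 0.05 ± 0.44 and 0.10 ± 0.56 (SD, n = 4 each) and did not pass. In ARF-128 they stood at -0.59 and -0.65. Mean differences from the surroundings ran from -0.41 ± 0.18 (SD, n = 5; V1rc15 alone) to 0.35 ± 0.20 (SD, n = 5; the first V1rd cluster). In 4 clusters all tumours lay below the surroundings: V1rc15 alone, V2r1b alone, the V1ra and V1rb genes (-0.003 in ARF-128), and chromosome 17. With normexp, an alternative background correction, these 4 lay closer to 0, as given further below. In 2 clusters all tumours lay above. Each cluster of either kind had an exact permutation p = 0.0625 (two-sided, over all flips of sign), the smallest that 5 tumours allow, and 0.115 after Benjamini-Hochberg adjustment over the 11 clusters.

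**Figure D3:**
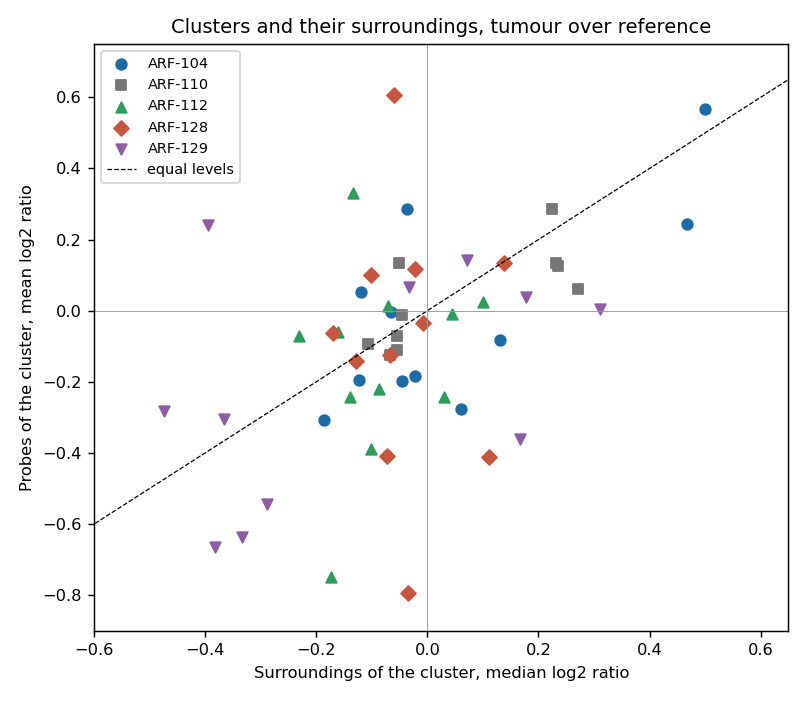
Mean log2 ratio of the member probes of each cluster (y axis) against the median log2 ratio of its surroundings (x axis), 1 symbol per cluster and tumour; the dashed line marks equal levels. Clusters in regions of high ratio in ARF-104 and ARF-110 and of low ratio in ARF-129 mostly lie on the same side of 0 as their surroundings, and V2r1b in ARF-128 (-0.79 at -0.03) lies far below the line.

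The V1rd genes on chromosome 7 held the lowest member. V1rd9 (RefSeq Vmn1r172) had a difference of -1.34 (ARF-104), -1.41 (ARF-112), -1.86 (ARF-129) and, in ARF-128, -1.87. All 4 tumours of the denser design were far below the surroundings, and ARF-110 has no probe there. The mean was -1.62 ± 0.28 (SD, n = 4; limma adjusted p = 0.0169), or 32.5% of the level around it, the 10th lowest of the 24936 genes. Its mean log2 ratio was -1.83 (limma adjusted p = 0.00914), and the level itself was thus low too. The value rests on the 1 probe shown above. V1rd7, 27.2 kb away, had differences of 0.03, 0.09, 0.09 and 0.02 in the same 4 tumours, all of them apart from those of V1rd9.

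Among the other 16 probes within 200 kb of V1rd9, the median of the mean log2 ratios in these 4 tumours was -0.20. A probe with no gene name 55.5 kb beyond V1rd9 had log2 ratios of -0.71, -0.79, -1.45 and -1.37 in these tumours. The probe between V1rd7 and V1rd9, 13.3 kb from V1rd9, had 0.36, 0.11, 0.05 and 0.81. Another probe, 173 kb before V1rd9, had -0.98, -1.21, -1.82 and -1.05, but -0.17 in ARF-110 on the sparser design. No probe lies between V1rd9 and the low probe beyond it, and the next, 100.5 kb from V1rd9, had 0.37, 0.31, 0.23 and 0.42. V1rd9 and its neighbour beyond were thus low next to each other, with higher probes on either side.

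**Figure D4:**
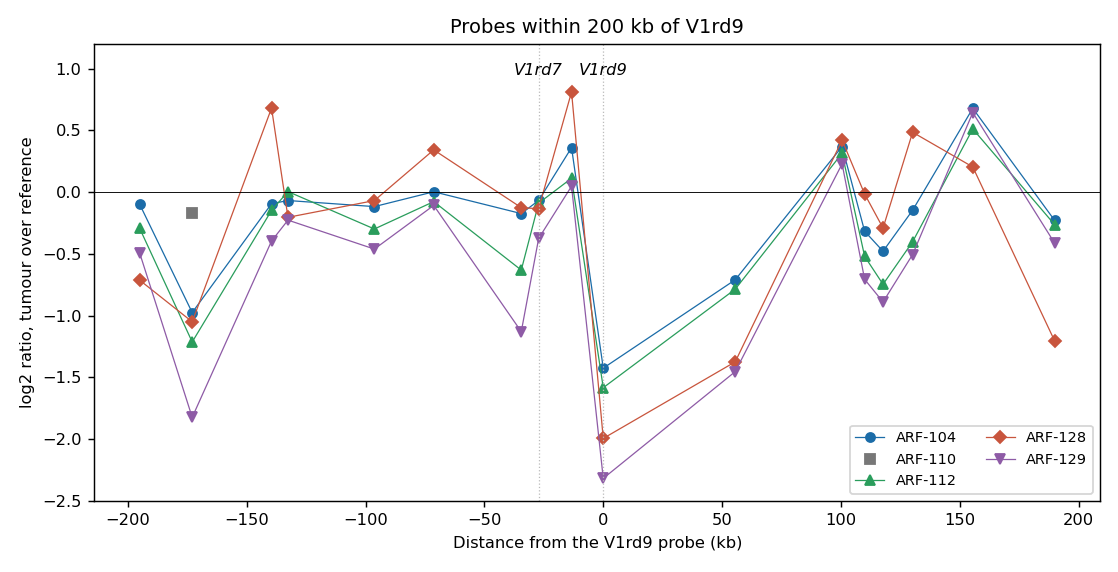
Log2 ratio of tumour over reference (y axis) at each probe within 200 kb of the V1rd9 probe (x axis, kb), 1 colour per tumour; ARF-110 has 1 probe there. The lines of ARF-104, ARF-112 and ARF-129 run nearly parallel, dip at V1rd9 and stand at -0.07, -0.09 and -0.37 at V1rd7.

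V1rd17 (Vmn1r179), in the same cluster, had differences of -0.15, -0.41, -0.55 and -0.70 in that order and was lower (mean -0.45 ± 0.24, SD, n = 4; limma adjusted p = 0.0385). Its neighbours V1rd16 (0.36 ± 0.35, SD, n = 5) and V1rd18 (0.33 ± 0.32, SD, n = 5) did not pass. V1rd11 (Vmn1r64), in the cluster at the start of chromosome 7, was higher, with 0.55 (ARF-104), 0.62 (ARF-112), 0.81 (ARF-129), 1.02 (ARF-128) and 0.18 (ARF-110) (mean 0.64 ± 0.31, SD, n = 5; limma adjusted p = 0.0256). All 5 tumours were above 0, and its probes, both within the same 281 bases, gave similar values. Its neighbour V1rd2 did not pass (0.05 ± 0.44, SD, n = 4), with ARF-128 at -0.59 against 0.14 to 0.41 in the other 3 tumours.

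The largest cluster, on chromosome 7 from 8929070 to 11806281 (mm7), holds 15 genes of the V1re, V1rg, V1rj, V1rk and V1rl families, and as a whole lay 0.10 ± 0.10 (SD, n = 5) above its surroundings. Called genes of opposite direction lay side by side in it. V1rg5 (Vmn1r74) had differences of -0.41 (ARF-104), -0.26 (ARF-112), -0.78 (ARF-129), -0.72 (ARF-128) and -0.02 (ARF-110), and was lower (mean -0.44 ± 0.32, SD, n = 5; limma adjusted p = 0.0472). V1rg6, the next gene, was higher at 0.26 ± 0.10 (SD, n = 5; limma adjusted p = 0.0290). V1rg4 (Vmn1r76), the gene after it, had 0.59, 0.56, 0.47, 0.55 and 0.48 in the same order of tumours, and 0.57 on the sparser array of ARF-128.

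The difference of V1rg4 from its surroundings was thus nearly the same in all tumours, on both designs and on all 3 scan days. V1rg4 was higher than its surroundings (mean 0.53 ± 0.05, SD, n = 5; limma adjusted p = 0.0169), and its SD was the smallest among the 18 called members. Its own log2 ratio was 0.47 (ARF-104), 0.33 (ARF-112), -0.00 (ARF-129), 0.38 (ARF-128) and 0.19 (ARF-110), and did not pass (limma adjusted p = 0.0869). V1re9 (Vmn1r69) was lower, with -0.42, -0.27, -0.61 and -0.66 in the 4 tumours of the denser design (mean -0.49 ± 0.18, SD, n = 4; limma adjusted p = 0.0263). V1rg2 (0.29 ± 0.20, SD, n = 5) lay above its surroundings in 5 of 5 tumours and did not pass (limma adjusted p = 0.0507). V1rg1 did so too (0.20 ± 0.14, SD, n = 5; limma adjusted p = 0.0745).

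At the far end of this cluster lie V1rj3, V1rk1 and V1rj2. V1rk1 (Vmn1r87) had differences of 0.66 (ARF-104), 0.81 (ARF-112), 0.57 (ARF-129) and, in ARF-128, 0.83, the highest mean of all members (0.72 ± 0.12, SD, n = 4; limma adjusted p = 0.0176). V1rj2 (Vmn1r89) had 0.67, 0.66, 0.73 and 1.52 in these tumours but -0.02 in ARF-110, with 0.33 on the sparser array of ARF-128 (mean 0.71 ± 0.54, SD, n = 5; limma adjusted p = 0.0492). It was the only called member whose tumours differed in sign. V1rj3 had 0.81, 0.63 and 0.45 in ARF-104, ARF-112 and ARF-129, against -0.24 in ARF-128 and -0.12 in ARF-110, and did not pass. Taken as a piece of their own, with clusters split at gaps of 0.5 Mb, the 3 genes stood at 0.59 to 0.72 in the tumours of the denser design and at -0.07 in ARF-110. Their mean was 0.53 ± 0.34 (SD, n = 5). The piece of V1re and V1rl genes stood at -0.01 ± 0.13 and that of V1rg genes at 0.03 ± 0.07 (SD, n = 5 each).

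On chromosome 6 the V1ra and V1rb genes lie together, V1rb7 apart from the rest in value. V1rb7 (Vmn1r40) had differences of 0.54 (ARF-104), 0.61 (ARF-112), 0.81 (ARF-129), 1.15 (ARF-128) and 0.12 (ARF-110), and 1.08 on the sparser array of ARF-128, the other array titled for this tumour. It was higher (mean 0.65 ± 0.38, SD, n = 5; limma adjusted p = 0.0308). V1ra1 (Vmn1r51) was lower, at -0.49, -0.54, -0.64, -0.40 and -0.09 in that order (mean -0.43 ± 0.21, SD, n = 5; limma adjusted p = 0.0275), yet stood at 0.29 on the sparser array of ARF-128. V1ra9 (Vmn1r54) was lower at -0.43 ± 0.21 (SD, n = 5; limma adjusted p = 0.0269), with all 5 tumours and the sparser array of ARF-128 (-0.29) below 0. With normexp correction the means were smaller for V1ra1 (-0.14) and V1ra9 (-0.13) but not for V1rb7 (0.65). Each still passed (limma adjusted p = 0.0478, 0.0260 and 0.0285), and the cause was not tested.

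V1ra2 (Vmn1r45), with 9 probes the best covered member, stood at -0.25 (ARF-104), -0.30 (ARF-112), -0.29 (ARF-129) and, in ARF-128, -0.04, and at -0.06 in ARF-110, which read 2 of the probes. It did not pass (mean -0.19 ± 0.13, SD, n = 5; limma adjusted p = 0.0696). Its probes differed more among themselves than its tumours did: in ARF-129 they ran from -0.77 at probe 2 to 0.21 at probe 1, and in ARF-104 from -0.55 at probe 3 to 0.12 at probe 5. The same probes were low in ARF-104, ARF-112 and ARF-129.

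The V1rc genes near the middle of chromosome 6 held 1 call. V1rc4, matched to the pseudogene Vmn1r-ps8, had differences of 0.53 (ARF-104), 0.54 (ARF-112), 0.53 (ARF-129), 0.49 (ARF-128) and 0.12 (ARF-110), whose value lay apart from the others. It was higher (mean 0.44 ± 0.18, SD, n = 5; limma adjusted p = 0.0241). V1rc5, 21.6 kb further on, had the lowest mean of the cluster, -0.10 ± 0.28 (SD, n = 5), and did not pass. V1rc15 (Vmn1r32), which lies alone at chr6:66534054-66538001 (mm7), was lower, at -0.22 (ARF-104), -0.58 (ARF-112), -0.53 (ARF-129), -0.52 (ARF-128) and -0.21 (ARF-110) (mean -0.41 ± 0.18, SD, n = 5; limma adjusted p = 0.0255). Its first probe carried this in ARF-112 (-1.15) and ARF-129 (-1.30), where the second stood at 0.00 and 0.25; in ARF-128 the second was the lower of them (-0.40 and -0.65).

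On chromosome 13 the V1rh and V1ri genes as a cluster stood at 0.03 ± 0.07 (SD, n = 5) from their surroundings, with 2 tumours below and 3 above. Of these 10 genes 1 passed: V1ri7 (Vmn1r202), at 0.53 (ARF-104), 0.64 (ARF-112), 0.59 (ARF-129), 0.76 (ARF-128) and 0.02 (ARF-110) (mean 0.51 ± 0.28, SD, n = 5; limma adjusted p = 0.0303). ARF-110 was near 0 and the other tumours well above it. V1ri10 (Vmn1r216), whose probe shares the 19 capital bases with that of V1ri7, had 0.02, 0.07, 0.12, -0.17 and -0.02 in the same order, a mean of 0.00 ± 0.11 (SD, n = 5). The overlapping probes of V1rh13 had mean differences of -0.13 ± 0.14 (SD, n = 5; probe 2) and -0.19 ± 0.23 (SD, n = 5; probe 3), and the first probe of that gene, 36 bases away from them, 0.41 ± 0.23 (SD, n = 5). V1ri6 had the lowest mean of the cluster, -0.20 ± 0.27 (SD, n = 5), and did not pass.

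On chromosome 17 the 13 V1re and V1rf genes stood as a cluster at -0.09 ± 0.05 (SD, n = 5), below their surroundings in 5 of 5 tumours. V1re3 (Vmn1r228) had -0.55 (ARF-104), -0.68 (ARF-112), -0.89 (ARF-129), -0.36 (ARF-128) and -0.27 (ARF-110), and -0.91 on the sparser array of ARF-128, so that all 6 arrays were below 0. It was lower (mean -0.55 ± 0.25, SD, n = 5; limma adjusted p = 0.0247). V1re6 (Vmn1r227) was lower, with -0.43, -0.30, -0.52, -1.02 and -0.17 in the same order of tumours but 0.02 on the sparser array of ARF-128 (mean -0.49 ± 0.33, SD, n = 5; limma adjusted p = 0.0410). V1re5 (Vmn1r225), at the end of the cluster, was higher at 0.29 ± 0.17 (SD, n = 5; limma adjusted p = 0.0404), above 0 in 5 of 5 tumours.

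Other chromosome 17 members stood out on the denser array of ARF-128 alone. V1re7 had 1.15 there, against 0.01 to 0.14 in the other 4 tumours and 0.16 on the sparser array of ARF-128. V1rf1 had -1.41, against 0.30 on the sparser array, and V1rf2 -1.16, against -0.17. V1rf4 had 0.78 on the denser and -0.89 on the sparser array of this tumour. These genes did not pass.

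The V2r genes had several probes each. V2r16 (Vmn2r10), on chromosome 5, stood at -0.07, -0.06, 0.06, 0.11 and -0.06 in that order (mean -0.00 ± 0.08, SD, n = 5). V2r1b (Vmn2r26), on chromosome 6, stood at -0.34 (ARF-104), -0.08 (ARF-112), -0.26 (ARF-129), -0.76 (ARF-128) and -0.11 (ARF-110), below 0 in 5 of 5 tumours, and did not pass (mean -0.31 ± 0.27, SD, n = 5; limma adjusted p = 0.0790). This mean hides probes that moved apart. Its first probe had differences of 0.42 (ARF-104), 1.59 (ARF-112), 1.94 (ARF-129) and, in ARF-128, -0.19. Its last probe had -1.08, -1.10, -1.77 and -2.83 in these tumours, but -0.11 in ARF-110 and -0.53 on the sparser array of ARF-128. The 2 arrays titled for ARF-128 thus gave values 2.30 apart at this probe.

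**Figure D5:**
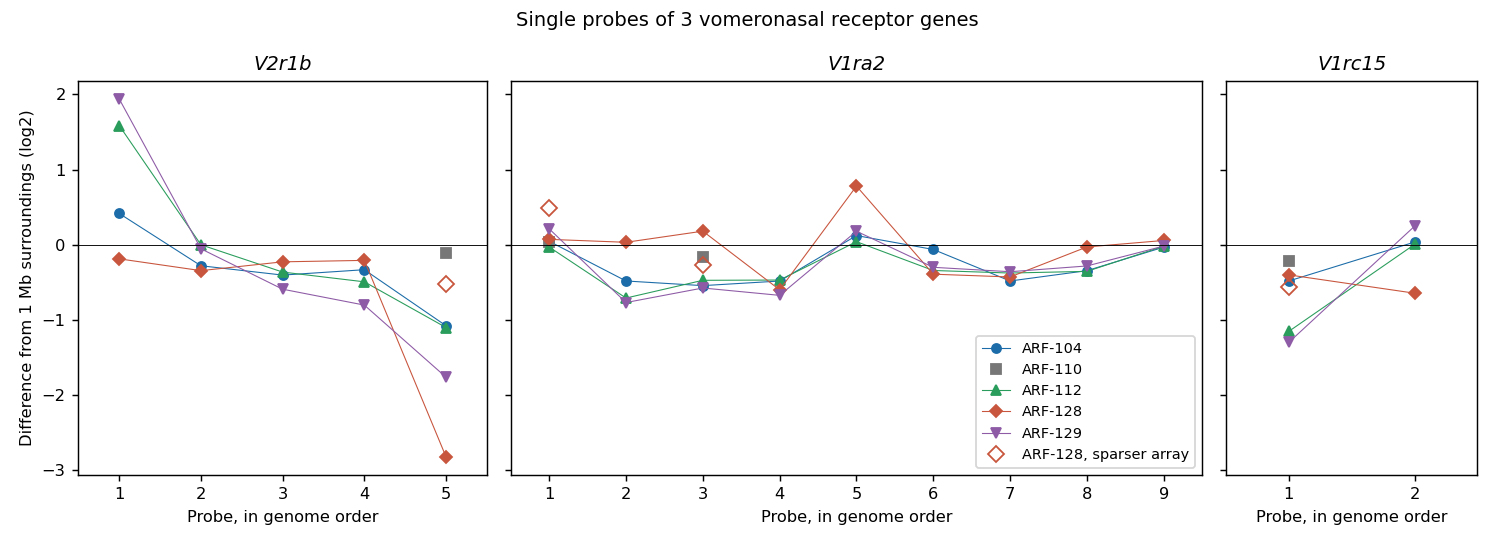
Difference of each probe from the 1 Mb surroundings of its gene (log2, y axis) for V2r1b, V1ra2 and V1rc15, probes in genome order (x axis); symbols are tumours, open diamonds the sparser array of ARF-128. The first probe of V2r1b lies at 1.59 and 1.94 in ARF-112 and ARF-129 and its last probe at -2.83 in ARF-128, while those of V1ra2 stay within 0.8 of 0.

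Both arrays titled for ARF-128 were taken as the same tumour, which the labels do not state outright. Over the 53 members on both, the differences correlated at r = 0.29, against 0.59 to 0.71 between the sparser array and each of the other 4 tumours (a description over genes; all arrays share the reference, and ARF-110 the design and scan day as well). Between both ARF-128 arrays 31 had the same sign, their median gap was 0.44, and 5 members lay more than 1 apart. Of the 14 called members with a probe on the sparser design, 12 had the sign of their mean on the sparser array of ARF-128 and 13 in ARF-110. ARF-110 was part of the fit that called them, so its signs are no separate check. The median size of their difference was 0.13 in ARF-110 and 0.31 on the sparser array of ARF-128, against 0.55 for the mean of the tumours of scan 2. The values of scan 2 also entered the calls. Over all genes the SD of the difference was 0.17 in ARF-110 and 0.39 on the sparser array of ARF-128, against 0.30 to 0.39 in the tumours of scan 2. The part of the design, the scan day and the tumour in this cannot be told apart.

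Without the subtraction of surroundings, 7 members had a log2 ratio below the autosomal median (11.3%, background 8.07%) and 5 above it (8.06%, background 9.38%) at a limma adjusted p under 0.05. The lower ones were V1rd9, V1rd17, V1re9, V1re3, V1re6, V1rg5 and V1rg7, and the higher ones V1rb7, V1rc4, V1rd11, V1ri7 and V1rk1. Of these 12, 11 were called in the same direction against their surroundings; V1rg7 was not (limma adjusted p = 0.102). The random block for scan days left 1 of them lower (0.722% of all genes) and 0 higher (0.926%). The median log2 ratio of the members was -0.05, against -0.01 over all genes.

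Other families that lie in clusters were called at shares like these. Of 608 olfactory receptor genes (Olfr), 102 were lower than their surroundings and 105 higher (16.8% and 17.3%), with a median size of difference of 0.32. Of 24 MHC genes (H2-), 5 were lower and 5 higher. No autosomal gene of these files carries a name that starts with Skint, so that list has 0 genes.

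Of 42 genes of vomeronasal signalling, receptor transport and co-expression, 28 could be tested, and Trpc2 was not among them. Of the 28, 4 were lower and 3 higher (14.3% and 10.7%), near the 12.4% and 9.63% of all genes. Gng13 had the lowest mean of the list and did not pass (-1.09 ± 1.21, SD, n = 5, limma adjusted p = 0.109). It lay below its surroundings in 5 of 5 tumours, at -3.25 in ARF-128 and -0.42 to -0.70 in the others. Rtp1 and Rtp2, neighbouring chaperones that bring chemoreceptors to the cell surface, were lower at -0.77 ± 0.37 and -0.54 ± 0.23 (SD, n = 5 each; limma adjusted p = 0.0253 and 0.0240). Of the H2-M10 genes, class I MHC molecules made in V2R neurons, 2 of the 5 tested passed: H2-M10.4 was lower at -0.71 ± 0.41 (SD, n = 5; limma adjusted p = 0.0297) and H2-M10.5 at -0.32 ± 0.19 (SD, n = 5; limma adjusted p = 0.0385). H2-M10.6, H2-M10.3 and H2-M10.1 did not pass, at means of -0.26, -0.10 and 0.05, nor did H2-M11 and H2-M1, at 0.17 and 0.19. Gnai2, which V1R receptors signal through, was higher than its surroundings at 0.29 ± 0.12 (SD, n = 5; limma adjusted p = 0.0278). Its own mean log2 ratio was 0.05 and did not pass (limma adjusted p = 0.830). Gnao1, its counterpart in V2R neurons, stood at -0.10 ± 0.05 (SD, n = 5; limma adjusted p = 0.163). Gng8 (0.34 ± 0.15, SD, n = 5) and Plcb2 (0.24 ± 0.14, SD, n = 5) were higher (limma adjusted p = 0.0275 and 0.0444). On their own log2 ratios H2-M10.5, Gng8 and Plcb2 did not pass either (limma adjusted p = 0.287, 0.0827 and 0.0800). Rtp1, Rtp2 and H2-M10.4 did, and were lower (limma adjusted p = 0.0127, 0.0188 and 0.0180). None of the 7 that passed against their surroundings did so with the block for scan days (limma adjusted p of 0.267 to 0.305).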

How the data were processed

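The authors scanned the arrays and deposited, per the file headers, processed red and green intensity values made with Agilent Feature Extraction (sparser design, version 8.5.1.1; denser, 9.1.3.1 or 9.5.3.1), detrended in space and scaled by 1 dye factor for each channel. They also deposited a log10 ratio per spot and a value table, in log10 for the sparser and log2 for the denser design, uncentred, as its comparison with the scanner values showed. From these, log2 of processed red over green was computed, without control spots and outlier flags, repeats averaged, centred on the autosomal median of each array, with no loess. Positions are mm7, per the header of the denser array of ARF-128; probes of the sparser design, for which no build is named, were joined by probe name.

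Genes with values in at least 4 tumours and at least 5 surrounding probes were fitted with limma 3.58.1 (lmFit, eBayes; R 4.3.3), the intercept against 0, with Benjamini-Hochberg adjustment over all genes. The reference's own spread is not part of this test. The number of arrays limits the precision. The code was tested on simulated data. Members and lists were chosen with earlier results of these data known. Genes were named by rule: the lowest and highest mean of each cluster, every member that passed (up to 20), and up to 10 more of one sign in every tumour; V1rg7, V1rj3, V1ri10, V1rh13 and the V1rf genes were singled out after their values were seen. Alternatives covered background correction, ratio columns, the arrays of ARF-128, weights, scan day, probe filters, surroundings, cluster gaps and each tumour left out.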

Additional observations from a re-analysis of the deposited data

Results flagged for a closer look

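Of 43 sets of tumour values tested for 1 outlying tumour (the named genes and the clusters), 5 met Dixon's limit, where chance gives about 1 in 20; 4 of the 5 were outlying in ARF-128 and 1 in ARF-110. V1rc4 stood apart in ARF-110, at a difference of 0.12 from its surroundings. In ARF-128, V1rd18 stood at 0.89, V1re2 at 0.77 and V1re7 at 1.15, each above the other tumours, and cluster 2, the V1rc genes near the middle of chromosome 6, at 0.20. On the sparser array of ARF-128 the 3 genes had 0.45, 0.22 and 0.16. Probe noise was 0.78 on the denser array of ARF-128; its part in these values was not tested.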

How the results depend on the processing

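Main counts of members were 9 lower and 9 higher than their surroundings, and 7 lower and 5 higher than the autosomal median. In this order they were 4, 6, 4 and 3 with normexp background correction, 14, 14, 12 and 6 when both arrays of ARF-128 were averaged, 0, 0, 1 and 0 with a random block for scan days, 20, 21, 16 and 14 with array quality weights, 1, 0, 0 and 0 among the 4 members with at least 3 probes, and 20, 19, 12 and 7 within scan 2 (3 tumours). The sparser array of ARF-128, with 53 members tested, gave 3 higher than the autosomal median, and 2963 of all 20079 genes tested. Leaving out 1 tumour gave 0 to 13, 0 to 15, 0 to 9 and 0 to 6. Over all genes the shares (or counts) lower and higher than their surroundings were 1423 and 2571 of 24936 genes with normexp correction, 19.3% and 15.9% with both arrays averaged, 33.6% and 28.9% with weights, and 0 with the block and without any 1 of the 3 tumours of scan 2. Without any 1 of the 3 tumours of scan 2, 10 or 11 members a direction had an unadjusted p under 0.05 against their surroundings. The share of all genes at that limit was not counted there, so these counts cannot be set against a background. In the main fit that share was 23.4% lower and 18.6% higher. Against the autosomal median, 2012 of 24937 genes were lower and 2339 higher in the main fit. These counts were 697 and 2258 with normexp correction, 3114 and 3547 with both arrays averaged, and 5384 and 5952 with weights. With the block they were 180 and 231. Among 13246 genes with at least 3 probes they were 918 and 1062, and within scan 2 3167 and 4131 of 24929 genes. Ratio columns, the deposited value table, dim probes left out, and the other surroundings kept each count within 1.5 times. The median difference was -0.079 among the 4 members with at least 3 probes. With normexp correction the cluster differences moved to -0.14 (V1rc15), -0.027 (V1ra and V1rb), -0.0031 (V2r1b) and -0.025 (chromosome 17); the cause was not tested. Of the 32 named genes, 1 changed sign with a call: V1re12, 0.02 over 4 tumours, was -0.19 within scan 2 (limma adjusted p = 0.0314) without ARF-128 (0.67); 86 values lost a call and 30 gained one. No paired analysis was possible because there is 1 group. Depth does not apply; signal over background was 4.14 to 11.1 (red channel).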

Other observations

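One vomeronasal name, V2r2, lies outside the autosomes, on 3 probes of sequence not placed on a chromosome in mm7. Over these probes the mean log2 ratio was -0.25 (ARF-104), -0.13 (ARF-112), -0.59 (ARF-129) and, in ARF-128, -0.06; it has no surroundings to compare with and was not tested.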
